A study of Mus musculus with 10 samples.

Results

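The amygdala neuropeptide genes described here are 10 genes that encode the precursors of secreted peptides: Sst, Npy, Cck, Vip, Tac1, Tac2, Nts, Cartpt, Pnoc and Nmb. They were chosen by name, and a gene's values are those of the array probe sets annotated to that symbol alone. The array held 70 such probe sets for them, out of 1256831 probe sets and 22103 gene symbols in all. Probe sets annotated to several genes are left out by this rule. The study compared the amygdala of neuropsin-/- mice (knockout, KO) with that of wild-type mice (WT) on GeneChip Mouse Exon 1.0 ST arrays, 5 arrays per genotype. All mice were 3 months old and of C57BL/6 background, the knockout line after 12 generations of backcrossing, and all were perfused with cold saline buffer before dissection, with no other treatment recorded. Neuropsin is the secreted serine protease encoded by Klk8. The design text gives 15 animals per genotype with RNA of 3 animals on an array, so each array was read as a separate pool of animals and no single animal can be seen. The sources used here do not give which part of Klk8 was removed.

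Neuropeptides are cut from longer precursors by prohormone convertases, stored in dense core granules and released to act on G protein-coupled receptors, usually more slowly and over a longer range than fast transmitters. In the amygdala many of them mark classes of neurons. Somatostatin, neuropeptide Y, vasoactive intestinal peptide and nociceptin are made mainly by inhibitory neurons, cholecystokinin by both interneurons and excitatory neurons, and tachykinins, neurotensin and CART peptide by neurons of the central and medial nuclei and their neighbours. Whole amygdalae were taken out of a coronal slice, and in such bulk samples fewer cells of a type and less RNA per cell cannot be told apart.

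The values are log2 expression values after RMA (the standard background correction, normalization and summary for these arrays). Of the 70 probe sets, 62 had a mean over the 10 arrays above the median of all probe sets, 4.94, and the other 8 (4 of Vip and 1 each of Tac2, Nts, Cartpt and Pnoc) lay below this intensity filter. A gene's level is the mean of its probe sets above the filter. All 10 genes had at least 3 such probe sets and were tested with the 16367 genes that did, so none was lost. The arrays were alike in scale, with medians of 4.95 to 5.03, and gene levels of any pair of arrays correlated at 0.958 to 0.987 (across genes, as a description). Wild-type arrays 4 and 5 stood apart on the first principal component of all gene levels (35.5% of the variance). They scored 20.5 and 23.5, where no other array scored above 7.45. Differences that depend on these arrays are therefore given without them too. Knockout arrays 4 and 5 had the next scores, 7.45 and 3.14, and were kept in that setting. Arrays 1 and 3 had the lowest scores in both genotypes (-10.3 and -11.7 in the knockout, -14.2 and -13.4 in wild type). The order thus partly followed the replicate number in both genotypes. The targeted gene did not pass the test either. Over its 9 probe sets Klk8 was at 5.02 ± 0.29 in the knockout and 5.17 ± 0.27 in wild type (SD, n = 5 each), a difference of -0.15 (exact two-sided permutation p = 0.413). Over the 5 of them above the filter, the measure used for the other genes, it was -0.39 (limma adjusted p = 0.693). Since the deleted part is not known here, this is no check of the labels.

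Several of these genes are textbook targets of CREB, the transcription factor that binds the cAMP response element TGACGTCA, so their promoters were searched for these letters. The reference table of RefSeq promoter windows (GRCm38.p6, 250 bases before to 50 after the annotated start) held 9 of the 10 genes, all but Pnoc. Only Sst and Cartpt of the 9 carried the whole palindrome, which 549 of 27025 genes in the table did (2.03%). Vip carried TGACGTC, which lacks the last letter. The element and its surroundings are shown for these 3 genes, 5′ to 3′ on the gene's strand, with the matching letters in capitals:
Sst: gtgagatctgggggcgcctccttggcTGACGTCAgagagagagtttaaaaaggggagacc
Cartpt: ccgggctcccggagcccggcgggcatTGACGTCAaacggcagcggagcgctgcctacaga
Vip: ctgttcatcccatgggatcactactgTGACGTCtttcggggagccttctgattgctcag
The Sst stretch is chr16:23890859-23890918 (minus strand), and its element begins 48 bases before the annotated start. The Cartpt stretch is chr13:99900762-99900821 (minus strand), with the element 112 bases before the start, and the Vip stretch is chr10:5639113-5639171 (plus strand), with the letters 79 bases before it. The half-site TGACG, on either strand and counting the whole elements, was present in 6 of the 9 genes (Sst, Cartpt, Vip, Cck, Tac1 and Nts) and in 23.0% of the genes in the table. A match of letters is a description and was not tested as a binding site.

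No difference between the genotypes passed the test in any of the 10 neuropeptide genes. Over all genes 4 of 16367 passed (0.0244%; limma, Benjamini-Hochberg adjusted p under 0.05), 1 higher and 3 lower in the knockout. The members' adjusted p-values ran between 0.679 and 0.948. Before adjustment Nmb, Cck and Pnoc had a p under 0.05, which 6.98% of all genes had. The ranges of the groups overlapped in all 10 members, whereas they did not in 1.55% of all genes. Levels were higher in the knockout in 4 members and lower in 6, and over all genes higher in 8070 and lower in 8297. The median difference (knockout minus wild type, log2, as throughout) was -0.08 over the members and -0.002 over all genes, and the median size of a difference without its sign was 0.18 over the members and 0.08 over all genes. The members have 4 to 9 probe sets each above the filter, and the 16367 genes have 238335 together. These medians were not matched for the number of probe sets, so they do not show that the members differ more than other genes.

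**Figure D1:**
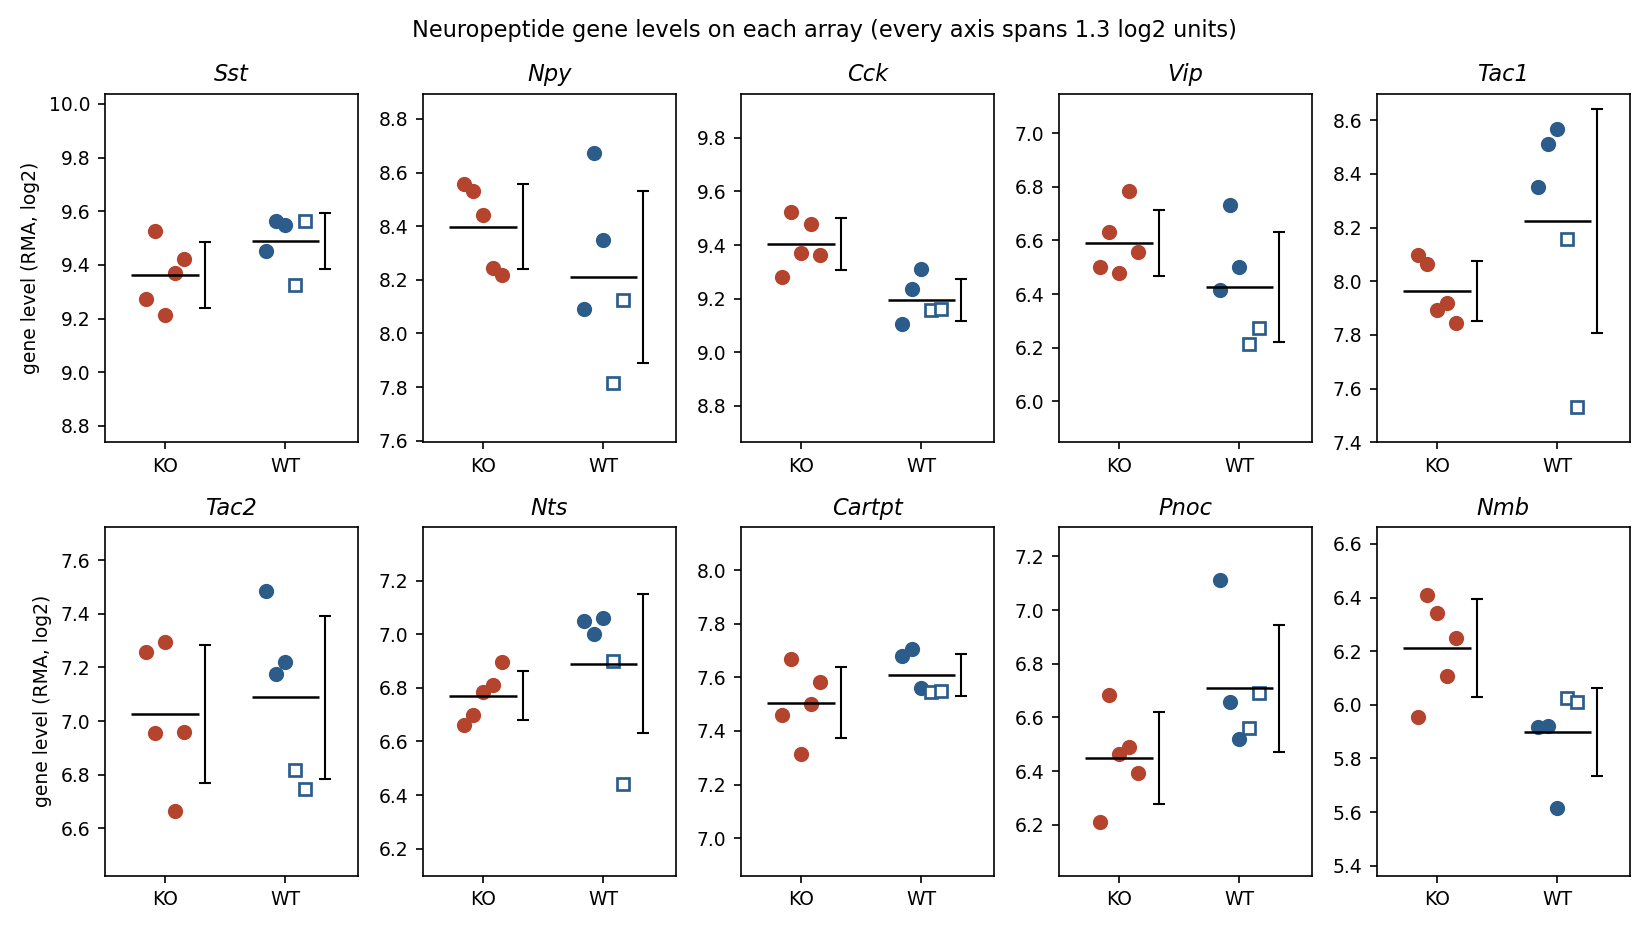
Gene levels (RMA, log2) of the 10 neuropeptide genes on each array, knockout (red) left of wild type (blue), with the group mean (line) and SD (bar, n = 5 arrays). Open squares are wild-type arrays 4 and 5. The groups overlap in every gene, and wild-type array 5 is the lowest of all arrays for Tac1 (7.53) and Nts (6.44).

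Among the peptides of inhibitory neurons, somatostatin was the steadiest. Sst, whose product restrains the release of hormones and transmitters, was at 9.27, 9.53, 9.21, 9.37 and 9.42 on knockout arrays 1 to 5, against 9.45, 9.56, 9.55, 9.32 and 9.56 on wild-type arrays 1 to 5. Knockout arrays 1 and 3 were below every wild-type array, and the other 3 knockout arrays lay within the wild-type range. The difference was -0.13 (SE 0.08, 95% interval -0.30 to 0.05, limma adjusted p = 0.773). Its residual SD of 0.11 was at percentile 25.0 of all genes tested. Over the 3 brighter Sst probe sets (here and below, those with a mean above 6.50, percentile 75 of the whole array), the level was 10.49 ± 0.16 in the knockout and 10.69 ± 0.12 in wild type (SD, n = 5 each), a difference of -0.20 (adjusted p = 0.773).

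Npy encodes neuropeptide Y, a peptide that lowers anxiety-like behaviour when given into the amygdala of rodents. It was at 8.56, 8.53, 8.44, 8.24 and 8.22 on knockout arrays 1 to 5 and at 8.09, 8.67, 8.35, 7.82 and 8.13 on wild-type arrays 1 to 5. Wild-type array 2 was the highest of all and wild-type array 4 the lowest, so the knockout arrays lay within the wild-type range. The difference of 0.19 (SE 0.14, adjusted p = 0.807) was 0.03 without wild-type arrays 4 and 5 and 0.09 over the 5 brighter probe sets. It was 0.09 without wild-type array 4 alone, 0.30 without wild-type array 2, and 0.31 with the mean level of striatal markers as a covariate (adjusted p = 0.412). The dimmest Npy probe set, 5317652, alone differed by 0.65 (SE 0.39, exact permutation p = 0.206, limma adjusted p = 0.871), at 5.29 ± 0.87 in the knockout and 4.64 ± 0.58 in wild type (SD, n = 5 each).

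Vip, the vasoactive intestinal peptide gene of interneurons that inhibit other interneurons, was at 6.50, 6.63, 6.48, 6.78 and 6.56 on knockout arrays 1 to 5 and at 6.41, 6.73, 6.50, 6.21 and 6.27 on wild-type arrays 1 to 5. Both wild-type arrays that stand apart were below every other array. With all arrays the difference was 0.16 (SE 0.10, adjusted p = 0.760). Without those arrays it was 0.04, over the 5 brighter probe sets 0.01, and with the mean level of hypothalamus markers (described further on) as a covariate 0.50 (adjusted p = 1). Vip had 9 probe sets above the filter, which differed by -0.20 to 0.75, and the widest difference was again at the dimmest of them, 4374314 (0.75, SE 0.31, adjusted p = 0.828).

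Pnoc encodes the precursor of nociceptin, the ligand of the opioid-like receptor Oprl1. The difference in its level was -0.26 (SE 0.12, 95% interval -0.51 to -0.01), a knockout to wild type ratio of 0.835 (exact permutation p = 0.0476, limma adjusted p = 0.701). Its levels were 6.21, 6.68, 6.46, 6.49 and 6.39 on knockout arrays 1 to 5 and 7.11, 6.66, 6.52, 6.56 and 6.69 on wild-type arrays 1 to 5. Wild-type array 1 stood well above the rest, and without it the difference was -0.16 (adjusted p = 0.643). The 5 probe sets were unequal: 4663716 and 4689030, both dim, differed by -0.73 and -0.43, while the other 3, all above 6.50, differed by -0.14 to 0.14 and together by -0.05.

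Cholecystokinin, an abundant peptide of the forebrain that can promote anxiety-like behaviour in rodents, had the smallest residual SD (spread within groups) of the 10. Cck was at 9.28, 9.52, 9.37, 9.48 and 9.36 on knockout arrays 1 to 5, against 9.11, 9.24, 9.31, 9.16 and 9.16 on wild-type arrays 1 to 5. Only knockout array 1 lay within the wild-type range, below wild-type array 3. The difference was 0.21 (SE 0.07, 95% interval 0.05 to 0.37), a ratio of 1.16 (exact permutation p = 0.0159, limma adjusted p = 0.693). It was 0.19 without wild-type arrays 4 and 5 and between 0.18 and 0.24 when any 1 array was left out. Of its 7 probe sets 6 were higher and 1 differed by -0.001. The widest differences were at the dimmest probe sets, 4660388 (0.47) and 4969329 (0.36, SE 0.15, adjusted p = 0.829), and over the 5 brighter ones the difference was 0.13. Markers of cortical and basolateral excitatory neurons, cells that can make Cck, were higher in the knockout in 10 of 11 genes (range -0.06 to 0.30, median 0.11). Their mean level was 8.46 to 8.48 on the knockout arrays and 8.13 to 8.46 on the wild-type arrays, and their part in the Cck difference was not tested.

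The tachykinin genes had the largest residual SDs of the 10. Tac1 encodes substance P and neurokinin A, and its neurons include those of the medial amygdala and the direct-pathway neurons of the striatum. It was at 8.10, 8.06, 7.89, 7.92 and 7.84 on knockout arrays 1 to 5, against 8.35, 8.51, 8.57, 8.16 and 7.53 on wild-type arrays 1 to 5. Wild-type array 5 was below all knockout arrays, and the other 4 wild-type arrays were above all knockout arrays. With all arrays the difference was -0.26 (SE 0.16, 95% interval -0.60 to 0.08, adjusted p = 0.754). Without wild-type array 5 it was -0.43 (adjusted p = 0.275), and without wild-type arrays 4 and 5 it was -0.51 (adjusted p = 0.0928). No member had a smaller adjusted p in any setting tried, but this one kept knockout arrays 4 and 5. Replicate numbers 4 and 5 were then in the knockout group alone, so replicate number and genotype are not separated in that value.

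Its probe sets mostly shared this direction. Of the 8 Tac1 probe sets 7 were lower in the knockout, with differences of -0.19 to -0.36, and the dimmest, 4626581, differed by 0.02. In 7 of the 8 every knockout array lay below wild-type arrays 1 to 3, and in 6 of the 8 wild-type array 5 was the lowest of all 10 arrays. Probe set 5045467 behaved otherwise. There the knockout arrays were at 8.16, 8.35, 7.94, 8.27 and 8.25 and the wild-type arrays at 8.41, 8.63, 8.41, 8.36 and 8.64, with array 5 the highest. It was the 1 probe set of the 62 whose groups did not overlap (1.1% of all 628415 probe sets tested did not), with a difference of -0.29 (SE 0.14, limma adjusted p = 0.844; exact permutation p = 0.00794, the smallest that 5 arrays against 5 allow).

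Tac2 encodes neurokinin B, which in mouse marks neurons of the central amygdala and the extended amygdala. Levels were 7.26, 6.96, 7.30, 6.66 and 6.96 on knockout arrays 1 to 5 and 7.48, 7.17, 7.22, 6.82 and 6.75 on wild-type arrays 1 to 5. The groups covered much the same range, and the difference was -0.06 (SE 0.15, 95% interval -0.38 to 0.25, adjusted p = 0.948). Its sign turned when knockout array 4 (0.03) or wild-type array 1 (0.04) was left out. Without wild-type arrays 4 and 5 it was -0.27 (adjusted p = 0.515). The 8 probe sets split evenly, 4 higher and 4 lower, and the one of smallest p, 4686767, was at 6.16 ± 0.34 in the knockout and 6.66 ± 0.24 in wild type (SD, n = 5 each; -0.50, SE 0.19, adjusted p = 0.818).

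Neurotensin, a peptide known for lowering body temperature and modulating dopamine signalling, had a profile across the arrays much like that of Tac1. Nts was at 6.66, 6.70, 6.78, 6.81 and 6.90 on knockout arrays 1 to 5 and at 7.05, 7.00, 7.06, 6.90 and 6.44 on wild-type arrays 1 to 5. Wild-type arrays 1 to 3 were above every knockout array and wild-type array 5 below them all. The difference of -0.12 (SE 0.11, adjusted p = 0.851) was -0.08 without wild-type array 3 (adjusted p = 0.822), -0.23 without wild-type array 5 (adjusted p = 0.606) and -0.27 without wild-type arrays 4 and 5 (adjusted p = 0.248). Its probe sets were unequal. The 3 brighter ones differed by -0.04 together, and 4608438 by -0.75 (SE 0.32, adjusted p = 0.829), with knockout arrays at 5.95, 4.65, 5.24, 6.53 and 5.04 and wild-type arrays at 6.08, 6.19, 6.15, 6.82 and 5.91.

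Cartpt, the precursor of CART peptides, which reduce feeding in rodents, was at 7.46, 7.67, 7.32, 7.50 and 7.58 on knockout arrays 1 to 5 and at 7.68, 7.71, 7.56, 7.55 and 7.55 on wild-type arrays 1 to 5. The groups overlapped, and the difference was -0.10 (SE 0.08, adjusted p = 0.829). It was -0.06 without knockout array 3 and -0.14 without knockout array 2. The levels of Cartpt and Sst correlated at 0.787 over the 10 arrays and at 0.882 without wild-type arrays 4 and 5. Of the 45 pairs among the members Tac1 with Nts was the most alike over the 10 arrays, at 0.824 (0.698 without those arrays). These correlations are a description of 10 arrays that share their dissection and normalization.

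Nmb, neuromedin B, a bombesin-like peptide known for its part in sighing and itch, had the smallest p of the 10. Its levels were 5.95, 6.41, 6.34, 6.11 and 6.25 on knockout arrays 1 to 5 and 5.92, 5.92, 5.62, 6.02 and 6.01 on wild-type arrays 1 to 5. Knockout array 1 lay below 2 wild-type arrays, and the other 4 knockout arrays lay above all wild-type arrays. The difference was 0.31 (SE 0.10, 95% interval 0.09 to 0.54), a ratio of 1.24 (exact permutation p = 0.0238, limma adjusted p = 0.679). All 5 probe sets were higher, by 0.09 to 0.57, and 5314543, the largest, was at 6.07 ± 0.18 in the knockout and 5.50 ± 0.33 in wild type (SD, n = 5 each; SE 0.18, adjusted p = 0.785). Every Nmb probe set had a mean below 6.50, so this gene has no value over brighter probe sets. Taking the median of its probe sets in place of their mean gave 0.20 (adjusted p = 0.892). Nmb lies on chromosome 7, which also carries Klk8, 254 tested genes away from it; the other 9 members lie on other chromosomes.

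**Figure D2:**
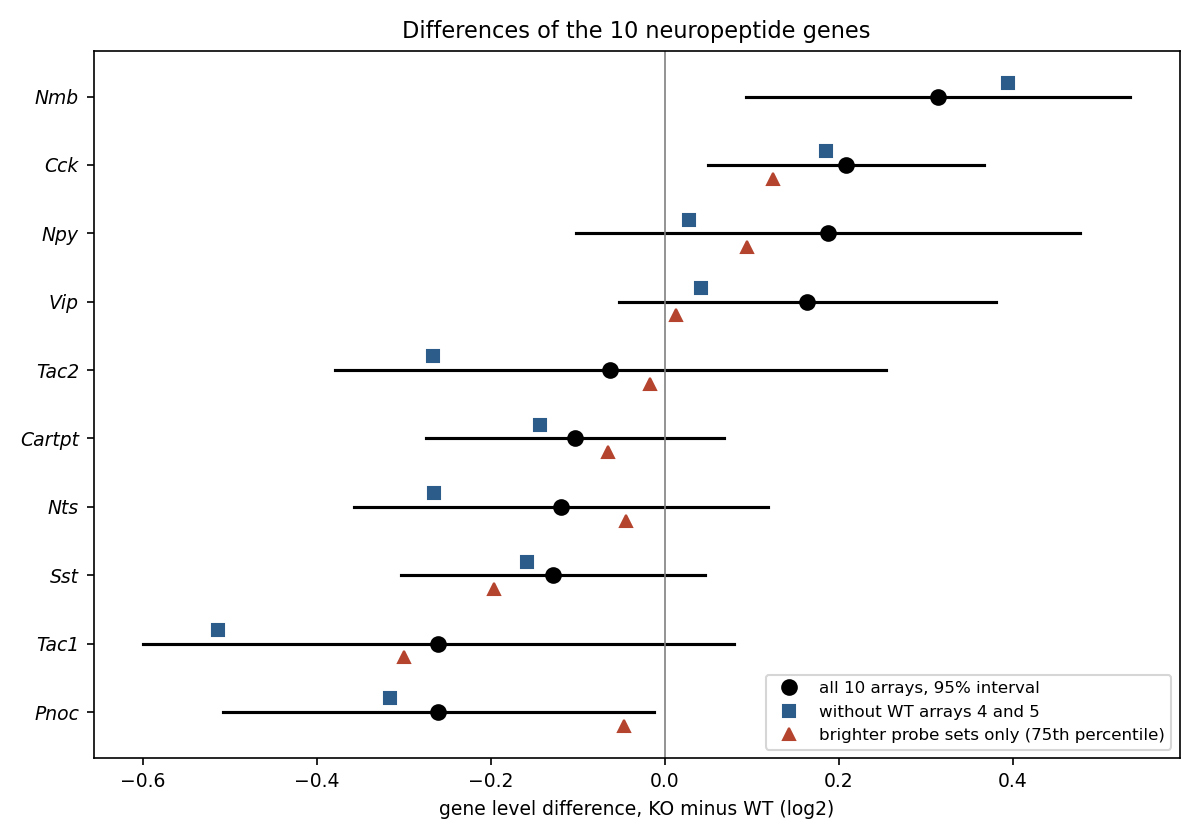
Gene level differences of the 10 neuropeptide genes, knockout minus wild type (log2). Black points with bars are all 10 arrays with 95% intervals, blue squares leave out wild-type arrays 4 and 5, and red triangles use the brighter probe sets (mean above 6.50), which Nmb lacks. Tac1 moves to -0.51 without the 2 arrays. With the brighter probe sets Sst (-0.20) and Tac1 (-0.30) move away from 0, and every other gene that has them moves towards 0.

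Across single probe sets, none of the 62 passed (smallest adjusted p = 0.785), where 15 of 628415 did (0.00239%). That background count was not stable: leaving out single arrays gave 2 to 9, and it was 0 with the replicate number as a block, 66 with only the brighter probe sets and 102 with a trended and robust prior, with none of the members' probe sets among them. Before adjustment 6 of the 62 had a p under 0.05, against 5.97% of all probe sets, and 32 were higher and 30 lower in the knockout. In Tac1 the mean correlation between pairs of probe sets, after taking out the group means, was 0.393 over the arrays, in Npy 0.357, in Sst 0.255 and in Tac2 0.252. It was between -0.159 and 0.136 in the other 6 genes, whose probe sets shared little of their spread between arrays. Differences over 0.4 in size came from probe sets with a mean level under 6.5 in every case.

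**Figure D3:**
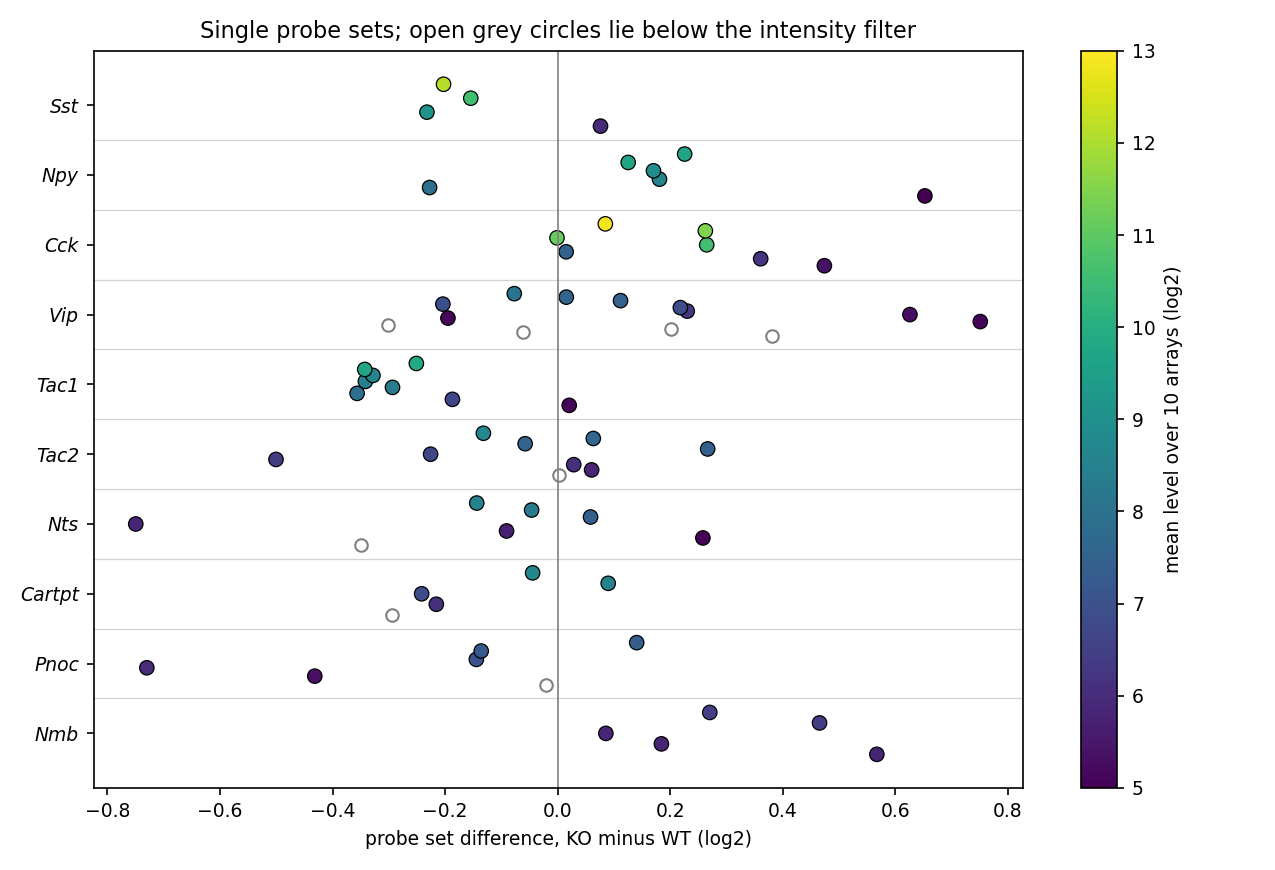
Differences of single probe sets, knockout minus wild type (log2), 1 point per probe set and coloured by its mean level. Open grey circles are the 8 probe sets below the intensity filter. In Tac1, 7 of 8 points lie together between -0.19 and -0.36, in Nmb all 5 lie above 0, and the widest points in Npy, Vip, Nts and Pnoc are dim.

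How much the members varied between arrays also differed. Tac1, Tac2 and Npy had residual SDs of 0.31, 0.28 and 0.25, at percentiles 96.2, 94.0 and 90.2 of all genes tested, whose median was 0.15. Cck, at 0.09, was at percentile 10.5, and Cartpt and Sst were at 21.7 and 25.0. The percentiles are not matched for the number of probe sets of a gene. Between its lowest and its highest array Tac1 spanned 1.04 log2 units and Sst 0.35. In 9 of the 10 genes, all but Nmb, the mean of wild-type arrays 4 and 5 lay below that of wild-type arrays 1 to 3, by the most in Tac1 (7.84 against 8.48) and Tac2 (6.78 against 7.29). The share of all genes that did so was not counted, and these arrays stand apart over all gene levels. The count is therefore not read as a trait of the members.

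No marker of neighbouring tissue passed the test (smallest adjusted p = 0.27). Hypothalamus markers were lower in the knockout in 12 of 13 genes (median -0.23). Their mean level did not overlap between the groups, at 6.07 to 6.34 on knockout arrays and 6.50 to 6.75 on wild-type arrays. Before adjustment 8 of the 13 had a limma p under 0.05, against 6.98% of all genes. In 3 of the 13 the groups did not overlap, against 1.55% of all genes. The peptide genes Pmch, Avp and Oxt had the widest differences, -1.88, -0.68 and -0.63. Pmch was at 4.34 to 4.93 on the knockout arrays, all below the intensity filter of 4.94, and at 5.35 to 7.59 on the wild-type arrays. The size of its difference therefore rests on knockout values too dim to pass that filter. None of the 10 members is on any of the marker lists. Striatal and intercalated cell markers were lower in 14 of 14 (median -0.19), with 3 at an unadjusted limma p under 0.05 and overlapping groups in all. Their mean level ran between 7.41 and 7.96 on the knockout arrays, with array 4 the lowest, and between 7.78 and 8.11 on the wild-type arrays, with array 5 the lowest. With that striatal mean as a covariate the Tac1 difference was -0.10 (adjusted p = 0.793) and that of Tac2 was 0.19 (adjusted p = 0.477), while Nmb, Cck and Pnoc stayed at 0.33, 0.18 and -0.25. With the hypothalamic mean as a covariate, whose values do not overlap between the genotypes, the 10 members had adjusted p-values of 1, with Vip at 0.50, Nmb at 0.43 and Pnoc at 0.25.

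Markers of other cells gave no passing gene either. Before adjustment, 4 of 13 oligodendrocyte markers and 4 of 11 cortical and basolateral markers had a limma p under 0.05. So did 2 of 18 GABA neuron markers and 2 of 9 central and medial markers, but no astrocyte, microglia or choroid plexus marker. Over all genes the share was 6.98%. Markers of GABA neurons, the cells that make most of these peptides, were lower in 13 of 18 (median -0.06, mean level 7.57 to 7.66 in the knockout and 7.53 to 7.80 in wild type). The interneuron gene Pvalb was lowest against wild type, at -0.32, and the calbindin gene Calb1 highest, at 0.22. Central and medial amygdala markers were lower in 7 of 9 (median -0.11, mean level 7.14 to 7.27 in the knockout and 7.18 to 7.49 in wild type); Crh, a defining peptide of the central nucleus, had only 1 of 3 probe sets above the filter and was not tested. Oligodendrocyte markers were lower in 13 of 13 (median -0.28, 8.09 to 8.51 in the knockout and 8.05 to 8.998 in wild type). Astrocyte markers were lower in 5 of 7 (median -0.02, mean 0.0001), with mean levels of 8.24 to 8.37 in the knockout and 8.11 to 8.48 in wild type. Microglia markers were lower in 7 of 7 (median -0.05, 7.14 to 7.25 in the knockout and 7.07 to 7.46 in wild type). Choroid plexus markers were lower in 6 of 6 (median -0.32, 6.29 to 8.05 in the knockout and 6.56 to 8.07 in wild type). The part of these lists in the members' differences was not tested, beyond the covariates given above. No tested marker was at 0 on any array. The filter acts on the mean of a probe set over all arrays, so a tested gene can lie below it on single arrays. Pmch did so on every knockout array.

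**Figure D4:**
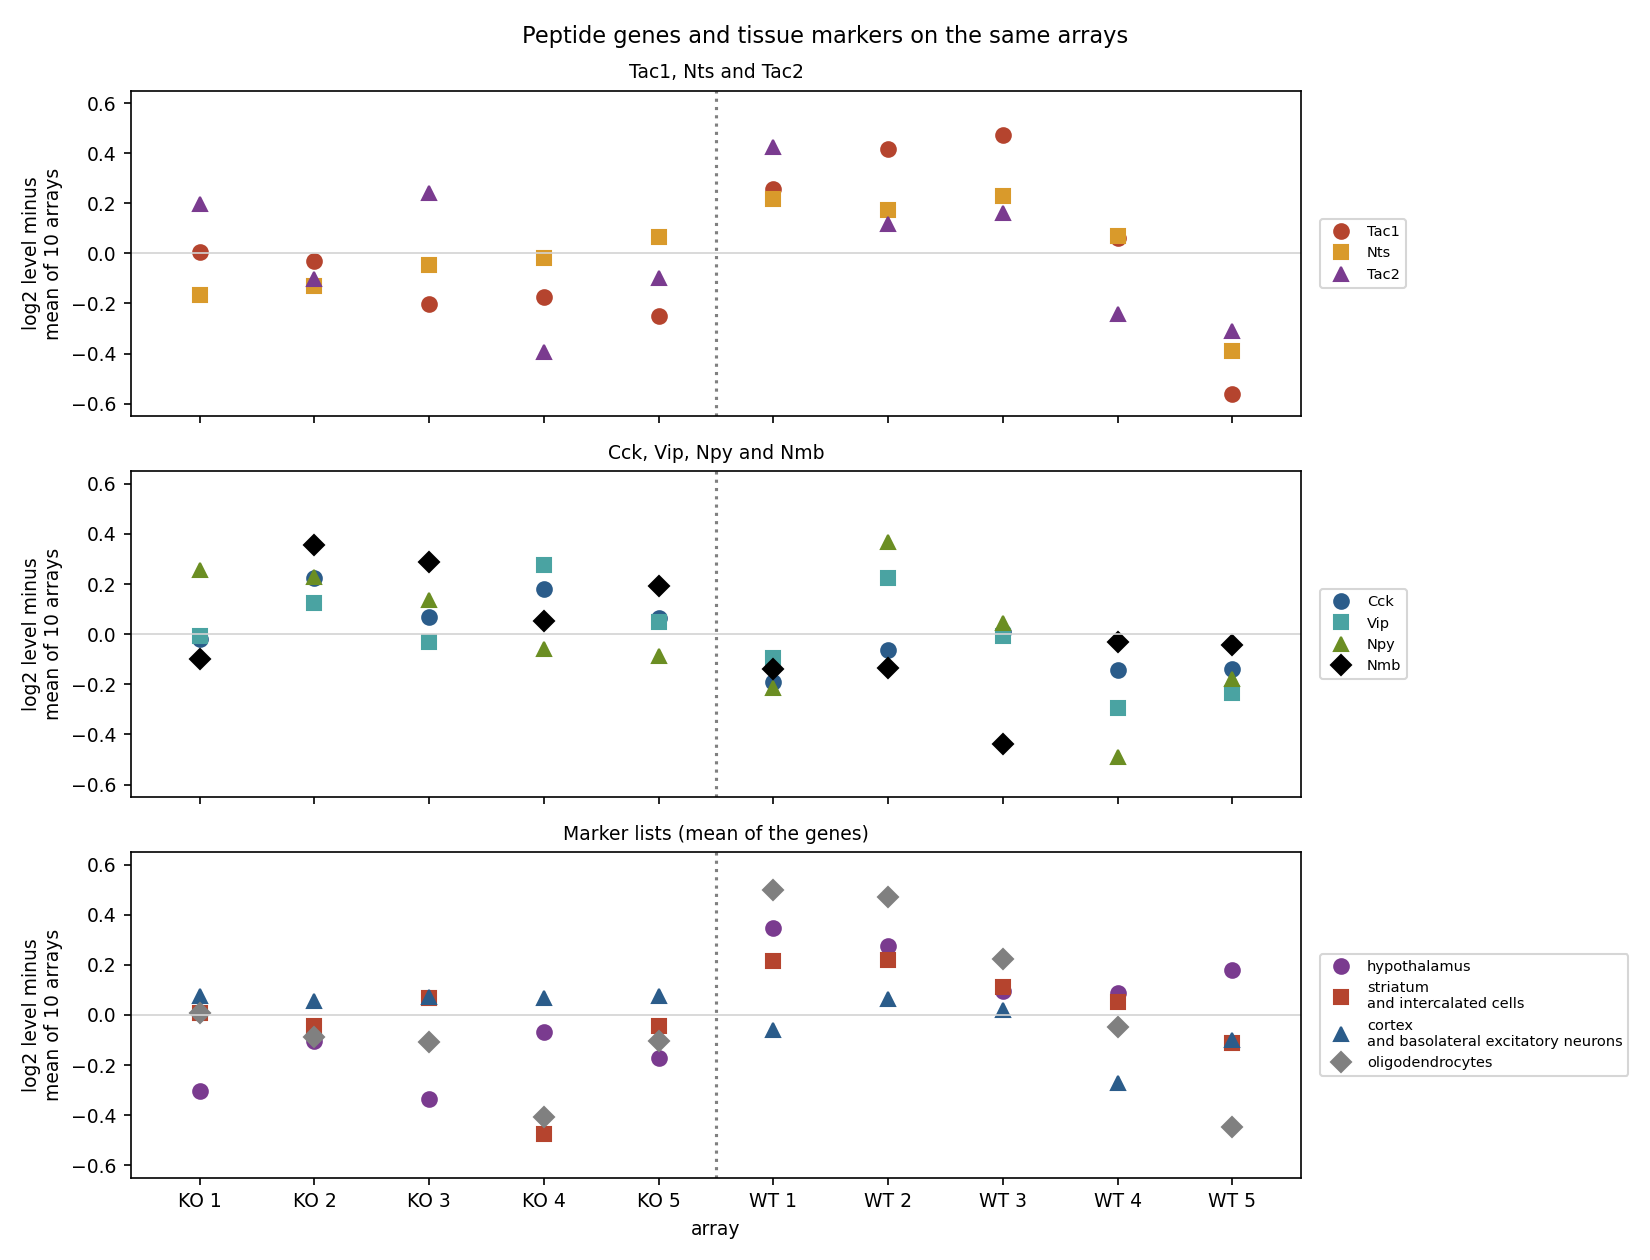
Levels of 7 neuropeptide genes and mean levels of 4 marker lists on each array (log2, minus the mean of the 10 arrays), knockout arrays left of the dotted line and wild-type arrays right of it. Tac1, Nts and Tac2 are low on wild-type array 5, where striatal and oligodendrocyte markers are low too. GABA neuron and microglia markers, not drawn here, are also at their lowest of the 10 arrays on that array (7.53 and 7.07). Striatal markers are lowest on knockout array 4 (7.41), where Tac2 is lowest (6.66) but Nts (6.81) and Tac1 (7.92) are not, and hypothalamus markers are lower on all knockout arrays than on any wild-type array.

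Next came the receptors on which these peptides act. Of 23 receptor genes 22 were tested (Npy4r had 2 probe sets above the filter) and none passed (smallest limma adjusted p = 0.693). In the knockout 13 were higher and 9 lower, with a median difference of 0.02. Against 6.98% of all genes, 1 of the 22 had an unadjusted limma p under 0.05. That gene was Cckar, a cholecystokinin receptor, at 5.67 ± 0.17 in the knockout and 5.87 ± 0.09 in wild type (SD, n = 5 each; -0.20, SE 0.09). The other cholecystokinin receptor, Cckbr, the main one of the forebrain, differed by 0.12 (SE 0.09). Next by p were the neurotensin receptor Ntsr1 (0.15, SE 0.09), the gastrin-releasing peptide receptor Grpr, which also binds neuromedin B weakly (-0.29, SE 0.19), and the somatostatin receptor Sstr2 (0.16, SE 0.11). Grpr rested on 3 dim probe sets, and without wild-type arrays 4 and 5 it differed by -0.61 (adjusted p = 0.166). The neuromedin B receptor Nmbr differed by 0.06 (SE 0.13), the substance P receptor Tacr1 by -0.12 (SE 0.10), the neurokinin B receptor Tacr3 by -0.18 (SE 0.17) and the nociceptin receptor Oprl1 by 0.0004 (SE 0.10).

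Of 16 genes for peptide processing and dense core granules, all tested, none passed either (smallest adjusted p = 0.693), with 13 higher and 3 lower and a median of 0.03; 1 had an unadjusted p under 0.05. It was Pcsk1n, which encodes proSAAS, an inhibitor of the convertase Pcsk1, at 8.95 ± 0.15 in the knockout and 9.16 ± 0.13 in wild type (SD, n = 5 each; -0.21, SE 0.09). Pcsk2, the convertase that makes many neuropeptides, was at 9.43 ± 0.22 in the knockout and 9.17 ± 0.26 in wild type (0.27, SE 0.13, adjusted p = 0.718). Pcsk5, another convertase, differed by 0.16 (SE 0.08), and Qpct, which closes the N-terminal glutamine of peptides such as neurotensin, by -0.16 (SE 0.09). Carboxypeptidase E (Cpe) and the amidating enzyme Pam, which finish most of these peptides, differed by 0.02 (SE 0.09) and 0.03 (SE 0.08).

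Of 8 related peptide genes 7 were tested and none passed (smallest adjusted p = 0.711), with 6 lower, 1 higher and a median of -0.16. Penk and Pdyn, opioid precursors of the same family as Pnoc, differed by -0.32 (SE 0.15) and -0.27 (SE 0.14), and with the striatal marker mean as a covariate by -0.03 and -0.02. Both are also on the striatal marker list, so each was partly adjusted for itself by that covariate. A mean without them was not used, and nothing is concluded from the smaller values. Penk was at 9.36 on knockout array 4, against 10.005 to 10.30 on the other knockout arrays, and without that array Penk differed by -0.16 and Pdyn by -0.17 (adjusted p = 0.797 and 0.831). Adcyap1, the PACAP gene related to Vip, differed by -0.25 (SE 0.13) where Vip differed by 0.16. Grp, the bombesin-like relative of Nmb, was at 6.99 ± 0.22 in the knockout and 6.82 ± 0.17 in wild type (SD, n = 5 each; 0.17, SE 0.11, adjusted p = 0.774), the same direction as Nmb. Tac4 differed by -0.16 (SE 0.18), Pyy, the gut relative of Npy, by -0.07 (SE 0.09), and Gast, the gastrin gene related to Cck, by -0.05 (SE 0.15). Cort, the relative of Sst, had 2 probe sets above the filter and was not tested.

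**Figure D5:**
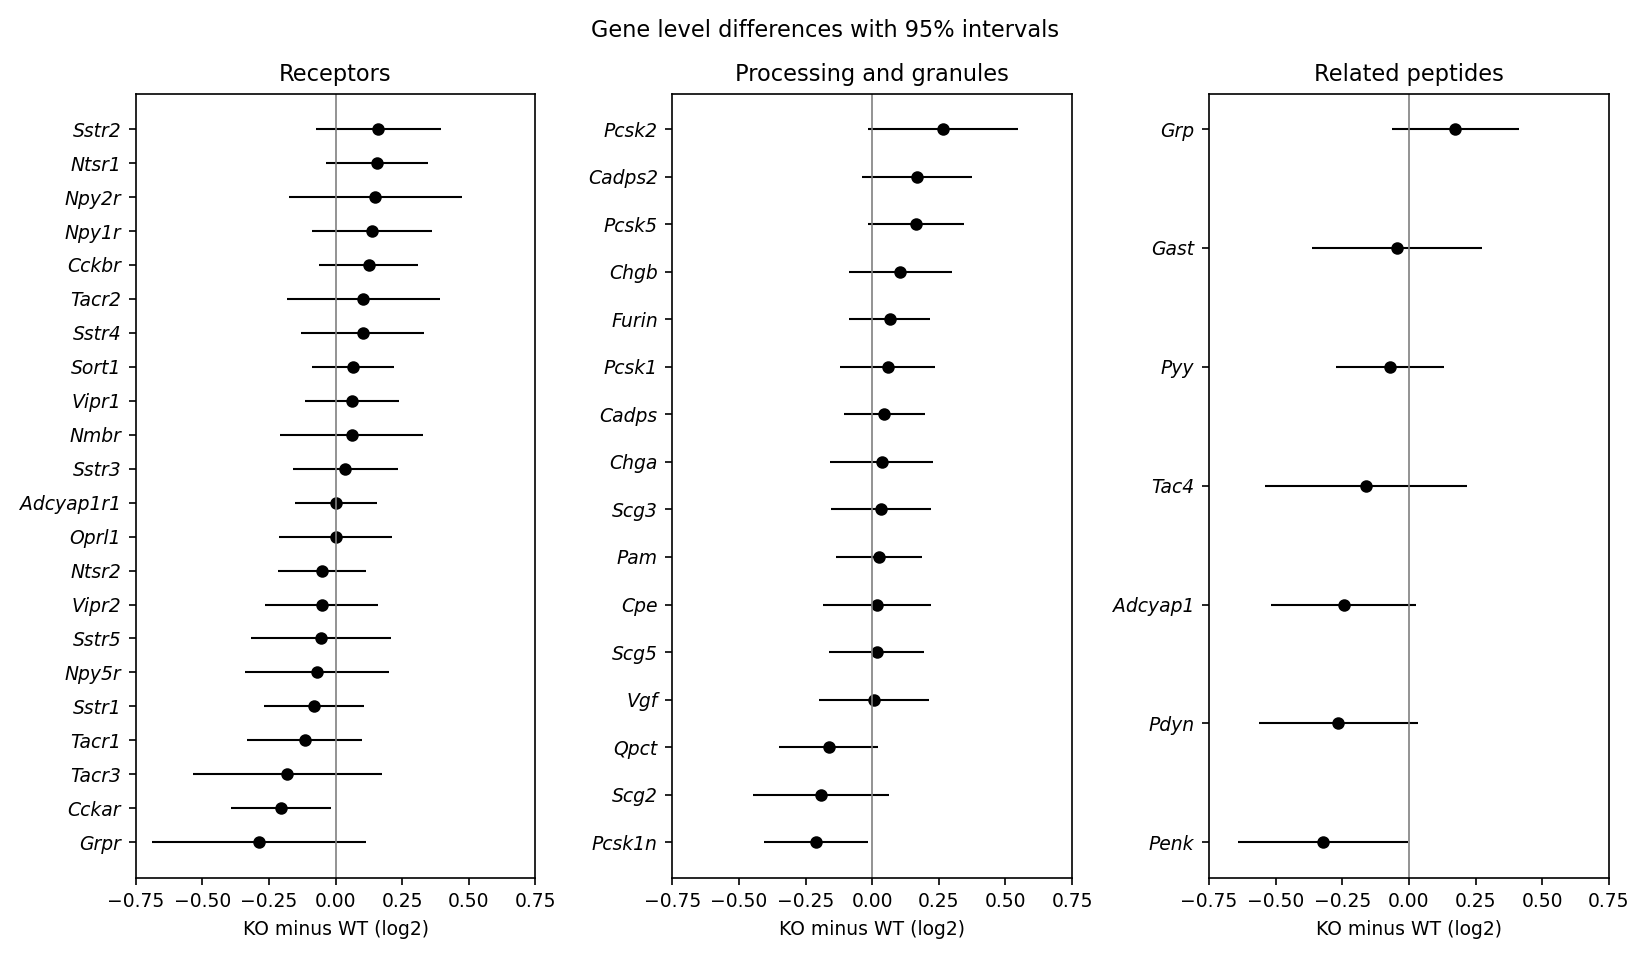
Gene level differences, knockout minus wild type (log2), with 95% intervals from the fit over all genes, for 22 receptor genes, 16 processing and granule genes and 7 related peptide genes. No gene passed after adjustment, and the intervals exclude 0 in 3 genes, Cckar (-0.20), Pcsk1n (-0.21) and Penk (-0.32, or -0.16 without knockout array 4). Over all genes, 6.98% had an unadjusted limma p under 0.05, which is the same as a 95% interval that excludes 0.

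For each member the genes with the most similar levels over the 10 arrays were taken from the 16367 tested, leaving out predicted genes, by Pearson's r. Being the highest of so many, these values describe likeness only. Tac1 was closest to Myoc (0.953) and Sppl2a (0.949), and Tac2 to Rtl8c (0.980) and Clvs1 (0.969). Sst was closest to Pom121 (0.925) and Zfp687 (0.913), Cartpt to Slc16a9 (0.954) and Ppp4c (0.935), and Nts to Pgrmc2 (0.931) and Dnajc19 (0.920). For Cck they were Fam13c (0.961) and Klhl23 (0.952), for Npy Mpv17l (0.956) and Lamb1 (0.951), and for Vip Aagab (0.956) and Mark3 (0.946). Pnoc was closest to Nfic (0.940) and Adcy7 (0.935), and Nmb to Dot1l (0.962) and Syt13 (0.925). Without wild-type arrays 4 and 5 these values lay between 0.888 and 0.974, and none of these genes is a member, a receptor or a processing gene of the lists above.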

How the data were processed

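The deposited table holds log2 expression for each probe set on each array. The authors ran RMA with Affymetrix Expression Console, per the submitters' processing notes; the sources used here name neither its version nor the genome build. Per the labels' protocols, ribosomal RNA was removed before the RNA was labelled. Scanner files were not used here, so no other background correction or scan block was run. Names came from the platform annotation, updated through RefSeq: 318760 probe sets had 1 symbol, 6684 several and 931387 none.

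The genotypes were compared in limma 3.58.1 (lmFit and eBayes) in R 4.3.3, without covariates, with Benjamini-Hochberg adjustment over all genes or probe sets and a threshold of 0.05. Single values were tested by exact two-sided permutation over the arrays (252 arrangements). The fits were tested on simulated data. Precision is limited by 5 arrays per genotype, and p-values measure the spread between pools. Members, lists and alternatives were chosen with earlier results of these data known. Genes named are the members, the 4 genes of smallest p in the receptor and processing lists, all related peptides, the 2 nearest genes in level, and Klk8; Cckbr, Nmbr, Tacr1, Tacr3, Oprl1, Cpe, Pam and the named markers were chosen after their values were seen.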

Additional observations from a re-analysis of the deposited data

Results flagged for a closer look

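In 4 of 42 groups of 5 arrays examined, 1 array stood apart from its group. Its gap was more than 0.710 of the group's whole range (Dixon's 95% value). For independent groups chance gives about 1 in 20. These groups are not independent, because they include each member's probe set of smallest p, which also enters the gene level. The count is therefore not compared with that share. Nts was at 6.44 on wild-type array 5, while the other wild-type arrays were at 6.90 to 7.06. Pnoc was at 7.11 on wild-type array 1, and the other wild-type arrays were at 6.52 to 6.69. Nmb was at 5.62 on wild-type array 3, with the others at 5.92 to 6.02. The Sst probe set 4951277 was at 11.8 on knockout array 1, and the other knockout arrays were at 12.0 to 12.1. The cause of these values was not tested.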

How the results depend on the processing

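No neuropeptide gene or probe set, receptor or processing gene passed in any of the settings run, which were 23 for genes and 16 for probe sets; the smallest adjusted p of a member was 0.0928 (Tac1 without wild-type arrays 4 and 5), with 5 members then at an unadjusted p under 0.05. Over all genes 4 passed, but 2 when genes with a single probe set were let in, 0 with the hypothalamus mean as a covariate (450 genes at an unadjusted p under 0.05), and 2 to 6 when 1 array was left out (2 without knockout array 2, 3 or 5). Of 229 member values in other settings 222 kept their direction and passed no threshold. Signs turned with the hypothalamus mean in Sst (0.08), Nts (0.0035), Cartpt (0.18), Pnoc (0.25), Cckar (0.0375), Qpct (0.0341), Pyy (0.0219), Gast (0.003) and Tac4 (0.42), and with the striatal mean in Tac2 (0.19) and Grpr (0.042). Gast also turned without wild-type arrays 4 and 5 (0.10), with array weights (0.0412) and with the median over probe sets (0.21). With 1 array left out Tac2 ran between -0.15 and 0.0365, Gast between -0.15 and 0.0315 and Tac4 between -0.29 and 0.0003. The hypothalamus mean does not overlap between the genotypes, so genotype and that mean are not well separated in the values adjusted for it. The cause of the turned signs was not tested.

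With the stricter filter Nmb was not tested, and 9 members had adjusted p-values of 0.773 or more (unadjusted p under 0.05 in Sst alone). Arrays of the same replicate number deviated together at correlations of 0.082 to 0.412, and 4 of 5 knockout arrays matched their own number best. Replicate number 2, at 0.082, missed the rule used for pairing (over 0.1 in every pair), so the main fit was not paired. A batch shared by replicate number is not stated in the labels and was not tested. With the replicate number as a block 3 genes passed, none a member (smallest member adjusted p = 0.360), and 0 of 62 member probe sets (0.645). That fit had 1795 of 16367 genes at an unadjusted limma p under 0.05, against 1142 without the block. Signal over background limits Nmb, whose probe sets all lie below 6.50, and the widest differences of Npy, Vip, Nts and Pnoc, which come from dim probe sets.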
